A study of Mus musculus with 30 samples.

Results

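The comparison described here is between the aortae of mice whose vascular smooth muscle cells (VSMCs) had lost the epidermal growth factor receptor (EGFR) and those of wild-type controls, all on a high-fat diet (HFD). Its members are the 4 knockout (KO) libraries KO-HFD-1454, KO-HFD-1503, KO-HFD-1504 and KO-HFD-1505 and the 4 wild-type (WT) libraries WT-HFD-1442, WT-HFD-1443, WT-HFD-1447 and WT-HFD-1448, chosen by tissue, genotype and diet, and each is named after its mouse. They are 8 of 30 libraries in the series and 8 of its 14 aortae. All mice were male. The KO line came from C57BL/6 mice with the floxed Egfr allele, mated with C57BL/6N mice carrying Smmhc-Cre. KO mice carried the floxed Egfr allele together with Smmhc-Cre, a tamoxifen-inducible Cre recombinase on the Y chromosome under the smooth muscle Smmhc (Myh11) promoter. WT mice carried the same Cre but no loxP sites, and received tamoxifen as well, 1 mg per day on 5 days. HFD began 7 days after tamoxifen, at 6 weeks of age, and lasted 18 weeks. Cre is active in smooth muscle while RNA came from the whole vessel, so that any Egfr RNA of its other cell types is part of the measurement, and in such bulk tissue fewer cells of a type and less RNA per cell cannot be told apart.

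EGFR is a receptor tyrosine kinase of the ErbB family that is activated by ligands such as EGF and heparin-binding EGF, and transactivated by G protein-coupled receptors for vasoactive hormones. It signals through the mitogen-activated protein kinase (MAPK) cascade to immediate early genes. In the vessel wall it is known for its part in contraction, growth and matrix production of VSMCs.

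Depth lay between 6782444 counts (KO-HFD-1454) and 13052870 counts (KO-HFD-1504) per library. Levels are given as FPM, fragments assigned to a gene per 1000000 of the TMM-scaled library size. The share of counts in small and structural RNA genes was 18.4% in KO-HFD-1454 and 43.1% in WT-HFD-1448, the extremes of the 8 libraries, and between 29.4% and 31.9% in the other 6. The smooth muscle identity of the tissue was visible in Acta2, smooth muscle actin, with 7652 ± 439 FPM in WT aortae and 7744 ± 1107 FPM in KO aortae (SD, n = 4 each), and in Myh11, smooth muscle myosin, at 6688 ± 509 and 6733 ± 611 FPM. Tagln and Cnn1 were listed at 0 in every library, as were all genes of the chromosomes on which they lie or of the part around them. Chromosomes 9, X and Y, the mitochondrial genome and distal chromosome 8 were therefore not analysed here.

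Of 13765 genes tested with edgeR's quasi-likelihood test, 27 (0.196%) had a Benjamini-Hochberg adjusted p under 0.05. Of these, 21 were higher in KO (0.153%) and 6 lower (0.0436%). With the stricter limit of 0.001 that the study used, 9 genes were left (0.0654%). The 27 genes were the targeted Egfr itself, Adcy1 and its neighbour Gm11983, the signalling genes F2r and Rgs5, 13 genes of a multicopy cluster on chromosome 4, the copies Pisd-ps1 and Pisd-ps2, and Cdo1, Paip1, Cd59a, Slc4a1, Car2, Abca6 and Adam11. In all 27 the KO and WT values did not overlap, against 4.2% of all genes tested (2.17% above and 2.03% below). The 27 were chosen by their p on these same values, so this is a description and no further support. In the fit of all 14 aortae 12 of the 27 passed, and that fit called 12 of 14796 genes (0.0811%), 5 of them at 0.001 (0.0338%). By the effect-size criteria that the study applied to its diet comparisons (Cohen's d beyond 2, a fold change beyond 1.5 and an FPM above 5, here of the higher group mean), which involve no test, 85 of 10161 genes differed (0.837%), 54 higher (0.531%) and 31 lower (0.305%) in KO, among them 26 of the 27.

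Egfr (ENSMUSG00000020122, chromosome 11, 16752203 to 16918158 of GRCm38, plus strand) is the targeted gene, and its level checks the labels. It measured 65.3, 57.1, 51.2 and 57.0 FPM in the 4 WT aortae and 27.6, 40.7, 39.7 and 33.4 FPM in the 4 KO aortae. Every KO value lay below every WT value, as the labels require. Egfr fell by 0.70 on the log2 scale (SE 0.122, edgeR adjusted p = 0.0342). Between 27.6 and 40.7 FPM remained. The counts cover all exons, deleted or not, and RNA of other cells, of undeleted alleles and of undeleted exons cannot be told apart. This call was close to the limit. With 1 library left out it held without KO-HFD-1454 (-0.59, edgeR adjusted p = 0.0390) or KO-HFD-1503 (-0.77, edgeR adjusted p = 0.0262) and was lost without any of the other 6, at most with an adjusted p of 0.155 without KO-HFD-1505. Over all 19 alternatives it held in 8, and it was also lost with library totals (edgeR adjusted p = 0.0904), in the fit of all 14 aortae (0.129), with the adipocyte covariate (0.222), with the small RNA covariate (0.119) and with the chromosome 4 cluster summed (0.0673). Egfros, an antisense transcript within Egfr, was at 4.20 ± 0.378 FPM in WT and 2.07 ± 1.12 FPM in KO (SD, n = 4, edgeR adjusted p = 0.498) without overlap. As the strand setting of the counting is not given in the sources used here, reads of Egfr and Egfros may not be separable.

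**Figure D1:**
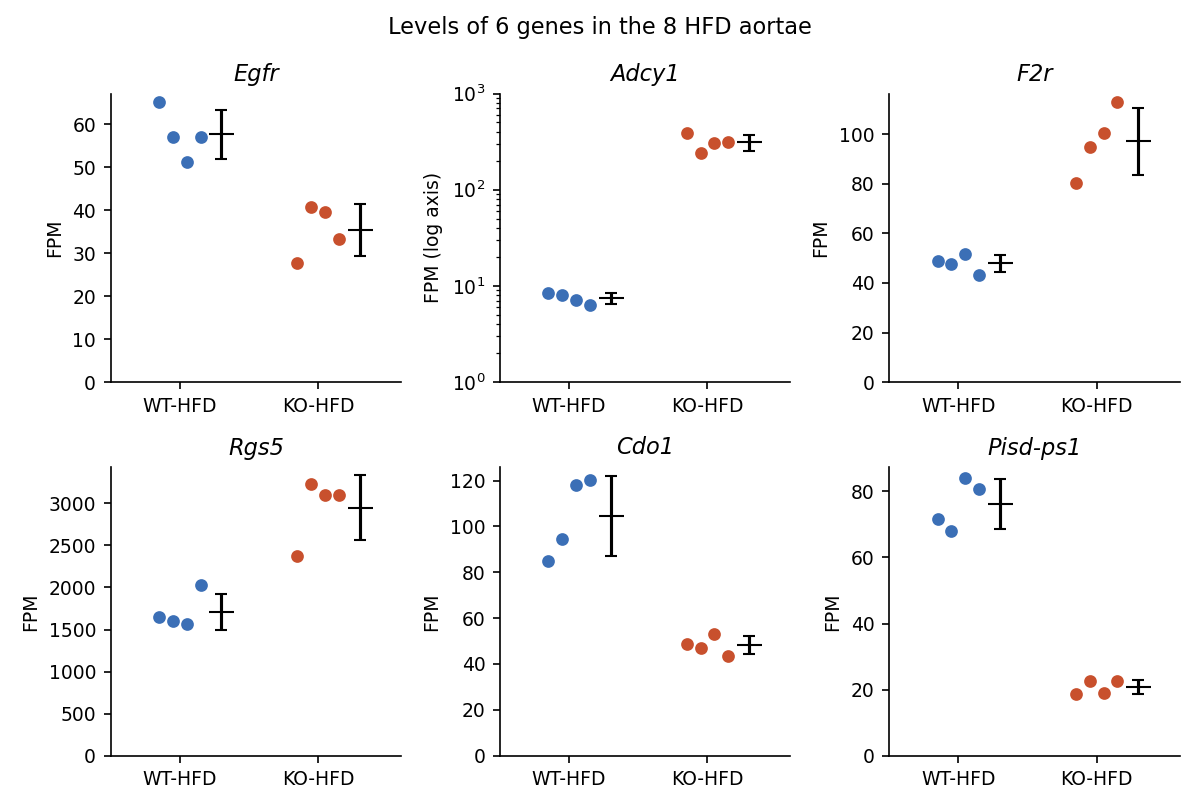
Level in FPM of Egfr, Adcy1, F2r, Rgs5, Cdo1 and Pisd-ps1 in each of the 4 WT-HFD (blue) and 4 KO-HFD (red) aortae, with the mean and SD beside the points and a log axis for Adcy1 only. In all 6 genes the groups are separate, from 5.38 on the log2 scale for Adcy1 down to -0.70 for Egfr and -1.88 for Pisd-ps1.

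The other members of the receptor family did not pass the test. Erbb2 was at 21.3 ± 1.52 FPM in WT and 19.2 ± 1.01 FPM in KO, and Erbb4 at 22.9 ± 2.75 and 26.7 ± 2.85 FPM (SD, n = 4 each), both with overlapping groups. The summed level of the 4 receptors was 98.1 to 113 FPM in WT and 77.5 to 91.1 FPM in KO. Of the 4 ErbB ligands tested by edgeR none passed, at an unadjusted p under 0.05 neither, and DESeq2 called none. The most abundant of them, Hbegf, measured 17.2 ± 3.64 and 22.1 ± 5.68 FPM. Of 11 inhibitors and shedding enzymes, Lrig1, which marks ErbB receptors for degradation, was the one at an unadjusted p under 0.05 (log2 fold change -0.26, SE 0.0986, edgeR adjusted p = 0.606). That is 9.09% of the list, close to the 7.33% of all genes.

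Adcy1 (ENSMUSG00000020431, chromosome 11, 7063489 to 7178506, plus strand) encodes an adenylyl cyclase that is stimulated by calcium and calmodulin and known chiefly from the brain. It was at 8.39, 8.05, 7.20 and 6.27 FPM in WT, against 389, 242, 308 and 313 FPM in KO aortae. The lowest KO value was above the highest WT value. Adcy1 rose by 5.38 on the log2 scale (SE 0.159, edgeR adjusted p = 2.35e-10), the smallest p of all genes tested, and passed the limit under all 19 alternatives tried. Per kilobase of exon, Adcy1 went from 0.597 to 25.0 FPM. On the same scale Adcy5, the most abundant cyclase of the vessel, was at 91.5 in WT and 95.6 in KO, Adcy6 at 19.1 and 21.2, Adcy7 at 16.9 and 17.7, Adcy9 at 8.30 and 8.10 and Adcy3 at 4.74 and 4.18. Adcy1 was thus the second cyclase by level in KO aortae, after Adcy5, and far below all of these in WT. Of 32 genes of cAMP synthesis and breakdown, Adcy1 was the one past the test, against 0.196% of all genes. An unadjusted p under 0.05 was reached by 2 higher and 2 lower members, 12.5% of the list against 7.33% of all genes. Pde2a, a cGMP-stimulated phosphodiesterase, had a log2 fold change of -0.66 (SE 0.233, adjusted p = 0.545) and Adcy4 of -0.30 (SE 0.106, adjusted p = 0.547).

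The 250 bases of the promoter window of Adcy1 are shown because this gene carries the largest well-measured difference. They end at 7063432, before the gene start of 7063489 given above. They were taken from RefSeq (GRCm38.p6, chr11:7063183-7063432, plus strand), whose table held a promoter for 6 of the 27 genes. Capitals mark matches to the GC box, GGGCGG, searched on both strands and present in 32.7% of 32851 promoters of this length. GC content was 71.2%, with 26 CpG sites, against medians of 52.4% and 6 over all promoters. The cAMP response element TGACGTCA, present in 1.55% of promoters, did not occur in this window.
Adcy1 promoter: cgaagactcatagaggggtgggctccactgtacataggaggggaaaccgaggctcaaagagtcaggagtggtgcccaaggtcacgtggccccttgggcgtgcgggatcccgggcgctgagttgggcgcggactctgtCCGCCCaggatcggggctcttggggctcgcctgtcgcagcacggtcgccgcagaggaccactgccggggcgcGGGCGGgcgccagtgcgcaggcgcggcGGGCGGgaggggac

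Gm11983, a gene on the minus strand that ends 226 kb before Adcy1, was listed at 0 counts in all 4 WT aortae and reached 1.47, 1.22, 1.84 and 1.23 FPM in KO. With 57 counts in KO against a floor of 3 counts over the WT group it was at least 18.3-fold higher (edgeR adjusted p = 0.00503). Gm11983 passed the filter on low counts only through the KO group. Its adjusted p was 9.4e-05 with no filter and 0.107 in the fit of all 14 aortae, where the call was lost, and DESeq2 gave none. Nudcd3, which lies further upstream and encodes a co-chaperone of dynein, was at 53.1 ± 5.4 FPM in WT and 71.9 ± 6.30 FPM in KO without overlap (SD, n = 4, log2 fold change 0.44, SE 0.0962, edgeR adjusted p = 0.162). Camk2b, a calmodulin-dependent kinase gene in the same region, overlapped between the groups (log2 fold change 0.25, SE 0.163, adjusted p = 0.781).

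Egfr, Adcy1, Gm11983 and Pisd-ps1 all lie in the first 20 Mb of chromosome 11. Adcy1 starts 9.69 Mb before Egfr. In this window 4 of 107 genes tested passed, and 15 (14%) had an unadjusted edgeR p under 0.05, against 7.33% of all genes. Both counts, and that of the whole chromosome, include Gm11983, which passed the filter only through its KO counts. The 15 also include the targeted Egfr and its antisense transcript Egfros. Far from Egfr, the share at an unadjusted p under 0.05 was 10.1% between 80 and 100 Mb and 10.5% between 100 and 120 Mb. It was 2.15% to 4.97% in the other windows of 20 Mb. A further 3 genes past the test, Slc4a1, Adam11 and Abca6, lay among 285 genes between 100 and 120 Mb, which gives 7 of 1258 genes for the chromosome (0.556%), against 0.196% of all genes and 13 of 1045 (1.24%) on chromosome 4. KO mice carry the floxed allele on this chromosome and WT mice do not, so that linkage to the allele and loss of EGFR cannot be told apart in this design.

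**Figure D2:**
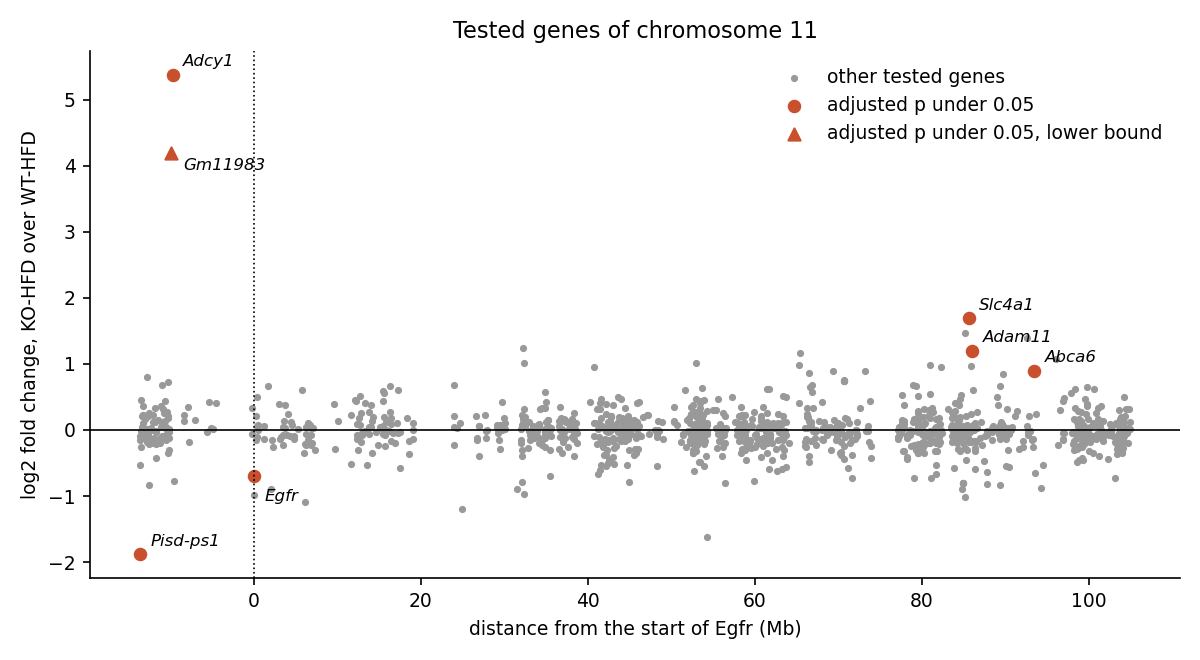
Log2 fold change of KO-HFD over WT-HFD of every tested gene on chromosome 11 against its distance in Mb from the start of Egfr, with genes past an adjusted p of 0.05 in red. The triangle for Gm11983 is its lower bound of 18.3-fold, and Adcy1 (5.38) and Pisd-ps1 (-1.88) stand apart from the band of other genes.

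Receptor signalling through G proteins held another pair of genes past the test. F2r, the thrombin receptor (chromosome 13, 95601803 to 95618487, minus strand), measured 48.7, 47.8, 51.8 and 43.4 FPM in WT, against 80.4, 94.7, 100.5 and 113 FPM in KO. F2r rose by 1.02 on the log2 scale (SE 0.105, edgeR adjusted p = 0.000321), and did so under all 19 alternatives. F2rl1, another protease-activated receptor on chromosome 13, was at a low level, with 3.31 ± 1.13 FPM in WT and 1.76 ± 0.655 FPM in KO (SD, n = 4, log2 fold change -0.88, SE 0.364, adjusted p = 0.643). F2r was the one of 37 vasoactive receptors to pass, against 0.196% of all genes, and the median of these receptors was a log2 fold change of -0.07. An unadjusted p under 0.05 was reached by 5.41% of them, against 7.33% of all genes.

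Rgs5, which shortens the signal of Gq and Gi proteins and is abundant in arterial smooth muscle and pericytes, measured 1647, 1605, 1571 and 2030 FPM in WT, against 2371, 3231, 3097 and 3100 FPM in KO. KO-HFD-1454 was the lowest of the KO aortae and WT-HFD-1448 the highest of the WT aortae, yet the groups did not overlap. Rgs5 rose by 0.78 on the log2 scale (SE 0.136, edgeR adjusted p = 0.0332). In leave-one-out fits the call held without KO-HFD-1454 (0.88, edgeR adjusted p = 0.00607) or WT-HFD-1448 (0.88, edgeR adjusted p = 0.0283) and was lost without each of the other 6, where the adjusted p reached 0.168 without WT-HFD-1447. Over all 19 alternatives it held in 9, and it was also lost in the fit of all 14 aortae (edgeR adjusted p = 0.168), with the adipocyte (0.128) and the blood covariate (0.105) and with the chromosome 4 cluster summed (0.0673). None of the other 13 regulators of G protein signalling tested by edgeR had an unadjusted p under 0.05. The same held for the 21 G protein subunits by edgeR and by DESeq2.

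A group of 13 genes on chromosome 4 between 41809083 and 42589938 rose together, by 1.26 (Gm10593) to 2.81 (Gm13301) on the log2 scale. Of these, Gm10601 held its call in 6 of 17 alternatives, Gm13303 in 9 of 17 and Gm3892 and Gm10593 in 13 of 17. Gm13302 held in 15 of 17, Gm3883 in 16 of 17 and Gm3893 in 16 of 18, and the others in all of theirs. In the fit of all 14 aortae Gm3883, Gm3893, Gm3892, Gm10593 and Gm10601 were lost. The cluster is a known stretch of repeated gene copies, and its genes share sequence: 58.6% to 100% of their 100-base stretches, the read length, also occur in another gene, against 0% to 1.84% in the other 14 genes past the test. Many reads can therefore not be assigned to a single copy, and the values of single members are uncertain. The following 100 bases, from a coding part annotated in GENCODE vM21 and shown because they show this sharing, occur in 12 of the 13 genes.
Shared stretch: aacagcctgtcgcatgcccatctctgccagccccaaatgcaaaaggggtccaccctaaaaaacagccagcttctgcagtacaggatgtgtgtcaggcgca
Summed over the 13 genes the level was 88.7, 101.0, 136 and 132.5 FPM in WT, against 679, 362, 390 and 398 FPM in KO. KO-HFD-1454 was the highest for each of the 13, and the lowest KO sum was still above the highest WT sum. Another 17 genes within this stretch were tested and did not pass, with a median log2 fold change of 0.36, and 33 between 41 and 43 Mb but outside the stretch had a median of 0.11. With the 13 genes summed to a single gene, a choice made after seeing the data, 10 genes were past the limit in place of 27. The sum itself merges 13 of the 27 into 1, and the calls lost were Rgs5, Egfr, Car2, Abca6 and Adam11.

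**Figure D3:**
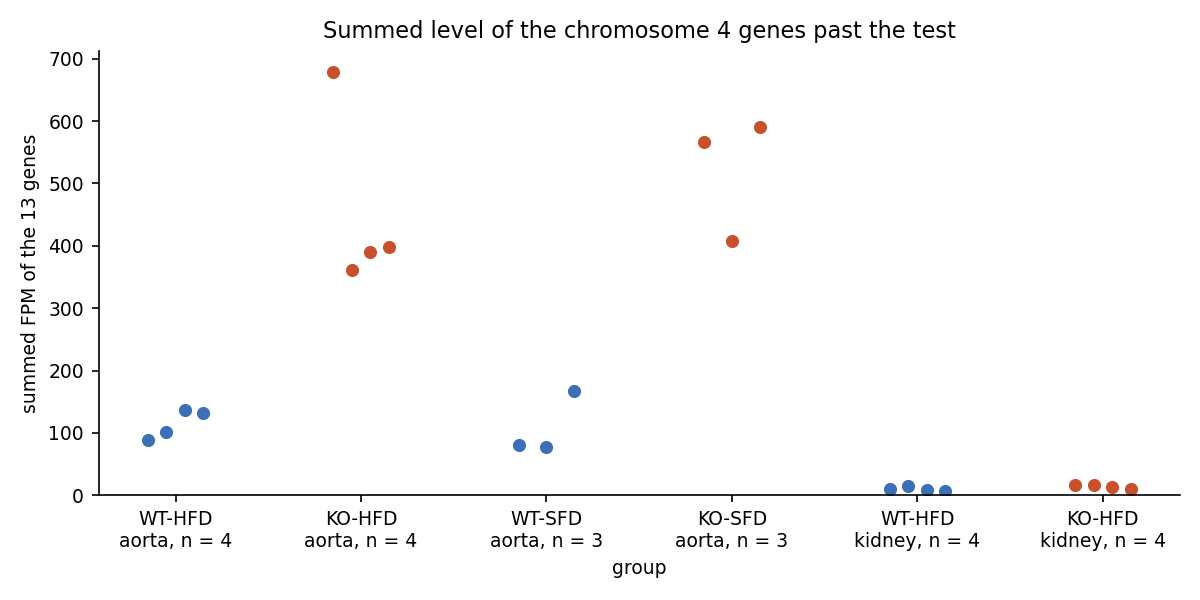
Summed FPM of the 13 chromosome 4 genes in each aorta on HFD and on the standard diet (SFD) and in each HFD kidney, WT in blue and KO in red. KO aortae lie at 362 to 679 FPM on HFD and 407 to 590 FPM on SFD, above all WT aortae, while all kidneys lie at 6.48 to 16.6 FPM.

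Pisd encodes the mitochondrial enzyme that makes phosphatidylethanolamine from phosphatidylserine. Its copy Pisd-ps1 (chromosome 11, 3125904 to 3131004) measured 71.5, 68.0, 84.1 and 80.7 FPM in WT, against 18.8, 22.5, 19.0 and 22.7 FPM in KO. Pisd-ps1 fell by 1.88 on the log2 scale (SE 0.105, edgeR adjusted p = 5.68e-07). Pisd-ps2 on chromosome 17 measured 20.3, 21.5, 20.03 and 19.8 FPM in WT, against 6.26, 8.48, 7.20 and 6.85 FPM in KO, and fell by 1.5 (SE 0.133, edgeR adjusted p = 6.78e-05). Both copies were thus narrow in spread within a group and widely separate between groups. Pisd itself, on chromosome 5, was at 15.7 ± 1.87 and 10.6 ± 1.70 FPM (SD, n = 4, log2 fold change -0.58, SE 0.15, edgeR adjusted p = 0.292). The transcripts are alike where they align to Pisd. Identity was 95.2% for Pisd-ps1, over all of its 1115 bases, and 96.3% for Pisd-ps2, over 377 of its 1424 bases. The rest of Pisd-ps2 lies outside the alignment. The stretch below lies in the coding part of Pisd and is shown to let the copies be compared, with capitals at the 11 of 120 positions where they differ. It was picked for the largest number of such positions among the gap-free aligned stretches of this length there. No other of these stretches differs at more positions. No 100-base stretch of Pisd-ps1 occurred in another annotated gene, against 1.84% for Pisd-ps2, but reads with mismatches could still have been placed on the wrong copy.
Pisd-ps1: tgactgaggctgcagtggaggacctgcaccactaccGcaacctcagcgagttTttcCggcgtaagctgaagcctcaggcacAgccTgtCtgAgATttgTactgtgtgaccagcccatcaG
Pisd-ps2: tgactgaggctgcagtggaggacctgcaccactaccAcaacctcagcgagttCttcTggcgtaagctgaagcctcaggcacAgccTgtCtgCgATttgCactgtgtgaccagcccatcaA
Pisd: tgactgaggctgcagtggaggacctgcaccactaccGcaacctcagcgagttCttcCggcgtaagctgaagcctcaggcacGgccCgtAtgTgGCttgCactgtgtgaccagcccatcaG

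The remaining 7 genes past the test belong to different functions. Cdo1, cysteine dioxygenase, measured 84.8, 94.6, 118 and 120.5 FPM in WT, against 48.8, 47.1, 53.3 and 43.7 FPM in KO. It fell by 1.11 on the log2 scale (SE 0.117, edgeR adjusted p = 0.000363) and was lost in 1 of 19 alternatives, the fit of all 14 aortae (adjusted p = 0.843). Paip1, a partner of poly(A)-binding protein in translation, went from 38.4 ± 4.41 to 23.7 ± 1.06 FPM and fell by 0.69 (SE 0.103, edgeR adjusted p = 0.00914). The Paip1 call held in 15 of 19 alternatives and was lost without KO-HFD-1505 (adjusted p = 0.0501), with library totals (0.0904), with the adipocyte covariate (0.129) and in the fit of all 14 aortae (0.184). Cd59a, which protects cells from the complement pore, measured 64.9, 56.6, 58.9 and 65.9 FPM in WT, against 29.9, 33.3, 45.2 and 39.2 FPM in KO and fell by 0.73 (SE 0.120, edgeR adjusted p = 0.0214). The Cd59a call held without WT-HFD-1443, KO-HFD-1454 or KO-HFD-1504 and not without any of the other 5, with an adjusted p of at most 0.0840 without WT-HFD-1448, and was also lost in the fit of all 14 aortae (0.0961) and with the adipocyte (0.173) and small RNA covariates (0.0711). Abca6, a lipid transporter of the ABC family, rose from 6.78 ± 0.297 to 12.7 ± 1.92 FPM (log2 fold change 0.90, SE 0.161, edgeR adjusted p = 0.0388). Adam11, an ADAM protein without protease activity, measured 13.6, 17.1, 21.3 and 17.9 FPM in WT, against 53.9, 39.2, 45.1 and 21.6 FPM in KO and rose by 1.20 (SE 0.220, edgeR adjusted p = 0.0495). KO-HFD-1505 was close to the WT range of Adam11. The Abca6 call held in leave-one-out fits only without KO-HFD-1504 and the Adam11 call only without KO-HFD-1505, with adjusted p of up to 0.137 and 0.192 without WT-HFD-1443. Over all 19 alternatives Abca6 held in 7 and Adam11 in 6, with an adjusted p of up to 0.178 (adipocyte covariate) and 0.193 (fit of all 14 aortae).

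Slc4a1 and Car2 are both genes of red blood cells, encoding the anion exchanger of the erythrocyte membrane and a carbonic anhydrase. Slc4a1 measured 9.41, 4.73, 5.84 and 9.72 FPM in WT, against 12.9, 20.8, 29.4 and 32.4 FPM in KO and rose by 1.69 on the log2 scale (SE 0.281, edgeR adjusted p = 0.0247). Car2 measured 3.07, 2.92, 2.19 and 3.97 FPM in WT, against 4.91, 9.14, 16.2 and 16.0 FPM in KO and rose by 1.94 (SE 0.342, edgeR adjusted p = 0.0356). KO-HFD-1504 and KO-HFD-1505 were the highest for both. These 2 libraries were also the highest for the summed blood markers, at 881 and 616 FPM, while KO-HFD-1454 and KO-HFD-1503 were at 261 and 364 FPM and WT aortae at 195 to 515 FPM. Of the 9 blood markers tested, Slc4a1 passed, and Hbb-bt, a beta-globin gene, had a log2 fold change of 0.72 (SE 0.307, edgeR adjusted p = 0.655). The most abundant marker, Hba-a1, overlapped with 99.8 ± 38.5 FPM in WT and 135 ± 79.7 FPM in KO (SD, n = 4), and Alas2 was listed at 0. With the blood marker mean as a covariate, added after seeing the data, Car2, which is not among these markers, had a log2 fold change of 1.37 (edgeR adjusted p = 0.126). Slc4a1 is itself in that mean, so that this covariate says nothing about it. In leave-one-out fits Slc4a1 was lost without WT-HFD-1443, WT-HFD-1447, KO-HFD-1504 or KO-HFD-1505, with an adjusted p of up to 0.127, and Car2 held only without KO-HFD-1454 or KO-HFD-1503, with up to 0.167 in the other 6. Slc4a1 was also lost with limma-voom (adjusted p = 0.0662), with the adipocyte marker mean as covariate (edgeR adjusted p = 0.173) and in the fit of all 14 aortae (0.87), and Car2 with the same 3 alternatives (0.204, 0.221 and 0.169) and with the chromosome 4 cluster summed (0.0673). For Slc4a1 the part of blood was not tested.

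The same genotypes on SFD, 3 KO and 3 WT aortae, share no library with the HFD comparison. Of 13723 genes tested in these 6 libraries 3 passed (0.0219%), namely Adcy1, Gm10600 and Gm13302, all among the 27. Of the 27 genes 26 were tested on SFD, and all 26 had the same direction there, against 55.2% of the 13332 genes tested on both diets. An unadjusted edgeR p under 0.05 on SFD was reached by 21 of the 26, against 3.42% of all genes on SFD. In 23 of the 27 the SFD groups were separate in the same direction, against 8.48% of all genes on SFD that were separate in either direction. The 13 chromosome 4 genes share sequence, and how far they count the same reads was not tested. Without them, 8 of the 13 other genes tested on SFD reached an unadjusted p under 0.05, and 10 of 14 were separate in the same direction. Adcy1 was at 4.54, 4.57 and 3.03 FPM in WT-SFD and 200, 232 and 288 FPM in KO-SFD aortae, a log2 fold change of 5.88 (SE 0.254). Egfr was at 45.6, 39.1 and 54.2 FPM in WT-SFD and 27.1, 36.4 and 27.96 FPM in KO-SFD, a log2 fold change of -0.60 (SE 0.181) without overlap. F2r had a log2 fold change of 1.26 on SFD (SE 0.268) and Rgs5 of 0.53 (SE 0.239), both with all KO values above all WT values. Cdo1 (-0.85, SE 0.612), Paip1 (-0.25, SE 0.231), Slc4a1 (1.39, SE 1.04) and Car2 (0.45, SE 0.515) overlapped between the SFD groups.

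The test of the difference itself, the interaction of genotype and diet in a fit of all 14 aortae, gave 0 of 14796 genes at an adjusted p under 0.05 by edgeR, with 606 (4.1%) at an unadjusted p under 0.05, and 2 genes by DESeq2. Among the 27, Car2 was the one at an unadjusted interaction p under 0.05, with a difference between the diets of 1.51 (log2, SE 0.645). The common dispersion was 0.0261 in the 8 HFD aortae and 0.0860 in the 6 SFD aortae, so that the SFD groups varied more.

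**Figure D4:**
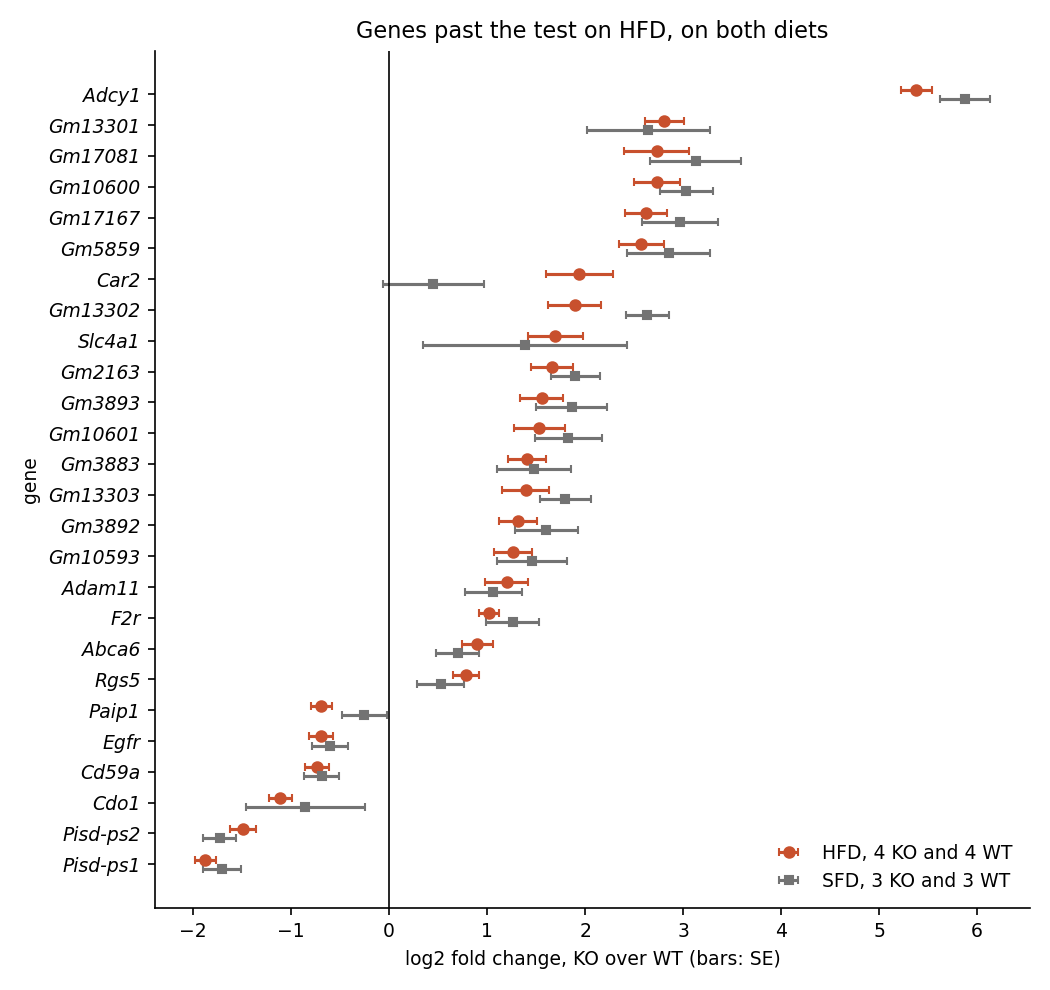
Log2 fold change of KO over WT with its SE for 26 of the 27 genes past the test on HFD (red circles, n = 4 and 4) and the same genes on SFD (grey squares, n = 3 and 3). Gm11983 is left out because its WT counts are 0, and all 26 genes lie on the same side of 0 on both diets.

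In the kidney of KO and WT mice on HFD, 1 of 14599 genes passed (0.00685%), Camk2b, which is not among the 27. Adcy1 in the kidney was at 27.4, 15.0, 25.5 and 21.1 FPM in WT, against 12.5, 9.90, 4.44 and 6.31 FPM in KO, the opposite direction of the aorta without overlap and not past the test (log2 fold change -1.42, SE 0.299, edgeR adjusted p = 1.0). Only 1 mouse number occurs in both tissues of the HFD groups. Pisd-ps1 overlapped in the kidney, at 50.4 to 95.5 FPM in WT and 46.4 to 81.0 FPM in KO.

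Among the gene groups downstream of EGFR, none of the 17 genes of the MAPK cascade had an unadjusted p under 0.05 by edgeR or DESeq2. Of 18 feedback inhibitors, 1 was higher and 2 were lower at an unadjusted p under 0.05 (16.7%, against 7.33% of all genes). None passed after adjustment by edgeR or DESeq2. In 2 of the 18 the groups were separate, both below (11.1%, against 4.2% of all genes in either direction). Spry2, an antagonist of receptor tyrosine kinase signalling, was below all WT values in every KO aorta, at 11.2 ± 2.45 FPM in WT against 6.96 ± 1.05 FPM in KO (SD, n = 4, log2 fold change -0.69, SE 0.194, edgeR adjusted p = 0.366). Dusp10 was also below (-0.35, SE 0.133, adjusted p = 0.603) and Phlda1 overlapped (0.61, SE 0.223, adjusted p = 0.567).

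Immediate early genes had lower fitted values in KO for 21 of 25 members, with a median log2 fold change of -0.30, against 7075 of 13765 and -0.01 over all genes tested. An unadjusted p under 0.05 was reached by 9 lower and 1 higher members, 40% of the list against 7.33% of all genes, beside backgrounds of 3.83% higher and 3.5% lower, and after adjustment none passed by edgeR and 1 by DESeq2. Atf3, a stress-induced transcription factor, measured 10.9, 18.9, 44.7 and 10.5 FPM in WT, against 6.01, 7.26, 6.64 and 5.34 FPM in KO (log2 fold change -1.74, SE 0.391, edgeR adjusted p = 0.167). With 1 library left out the fold change of Atf3 ranged from -1.96 to -1.09. Jun, a subunit of AP-1, measured 102, 102, 163 and 95.8 FPM in WT, against 94.4, 86.0, 65.7 and 56.0 FPM in KO (-0.61, SE 0.183, adjusted p = 0.388). Ier5 was at 14.4 ± 3.10 and 8.24 ± 1.82 FPM (SD, n = 4, -0.79, SE 0.195, adjusted p = 0.245), also without overlap, and Jund and Cyr61 had values of -0.41 and -1.04 with overlap. The value of Cyr61 ranged from -1.27 to -0.42 with 1 library left out. The most abundant member, Ctgf, was at 472 ± 150 and 385 ± 131 FPM. WT-HFD-1447 was the highest library for 12 of the 25 and KO-HFD-1505 the lowest for 12, and on SFD the median of the list was 0.04.

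**Figure D5:**
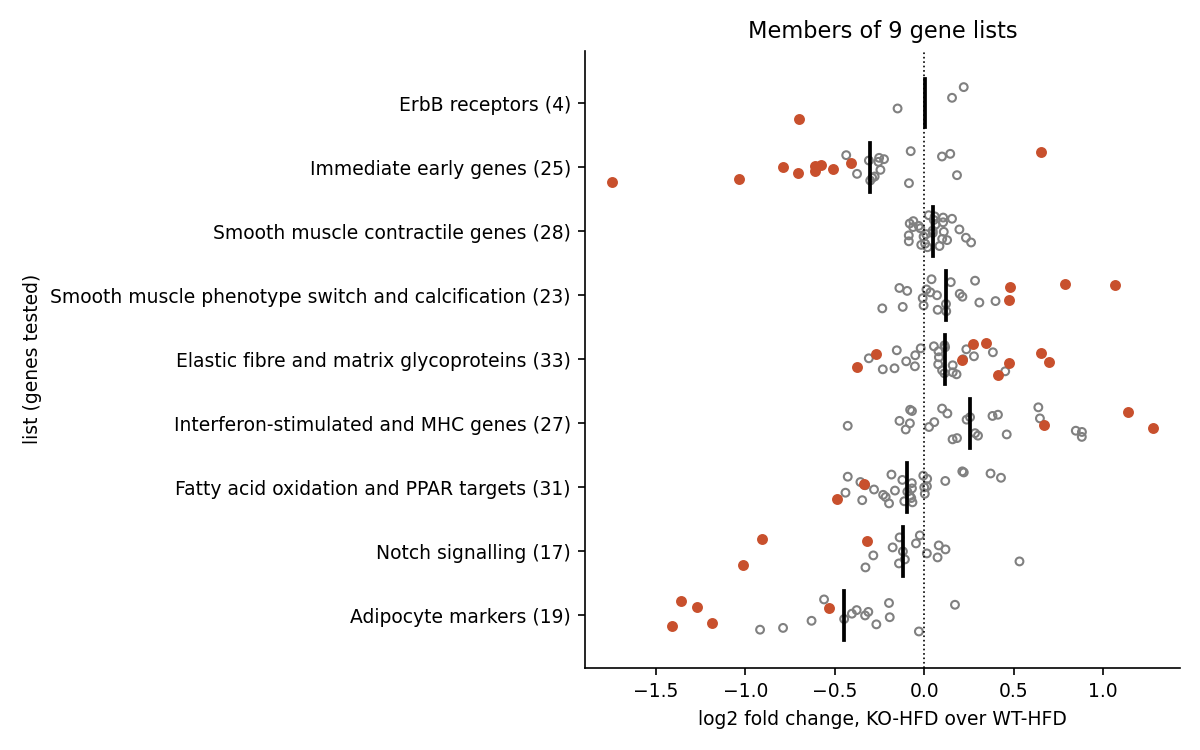
Log2 fold change of KO-HFD over WT-HFD for the tested members of 9 gene lists, 1 point per gene, filled red at an unadjusted p under 0.05, with a bar at the list's median. Immediate early genes (median -0.30) and adipocyte markers (median -0.45) lie mostly to the left, interferon and MHC genes (median 0.26) mostly to the right, and contractile genes (median 0.05) close to 0.

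Of 28 contractile genes of smooth muscle tested, 0 had an unadjusted p under 0.05 by edgeR and 1 by DESeq2, none after adjustment by either, and the median log2 fold change was 0.05. Of 23 genes of phenotype switch and calcification 4 (17.4%, against 7.33% of all genes) were at an unadjusted p under 0.05, all higher in KO (3.83% of all genes), with none past the adjusted limit by edgeR and 1 by DESeq2. Mgp, an inhibitor of vascular calcification, measured 883, 855, 813 and 952 FPM in WT, against 1089, 1216, 1406 and 1156 FPM in KO, without overlap (log2 fold change 0.47, SE 0.106, edgeR adjusted p = 0.166). S100a4 (0.48, SE 0.137, adjusted p = 0.372) was separate as well, whereas Sox9 (1.07, SE 0.326, adjusted p = 0.416) and Thbs1 (0.79, SE 0.245, adjusted p = 0.428) overlapped. Mgp passed in 4 of 19 alternatives, namely DESeq2, limma-voom, no filter on low counts and the small RNA covariate. Thbs1 passed in 2 of 19 and S100a4 and Sox9 in none.

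In the matrix, none of 20 collagen genes had an unadjusted p under 0.05 by edgeR, and 1 by DESeq2. Of 33 elastic fibre and matrix glycoprotein genes, 7 were higher and 2 lower at an unadjusted p under 0.05, which is 27.3% of the list against 7.33% of all genes (3.83% higher, 3.5% lower), with none past the adjusted limit by edgeR and 1 by DESeq2. Fn1, fibronectin, measured 3101, 2674, 2696 and 3028 FPM in WT, against 3173, 4241, 4052 and 4505 FPM in KO (log2 fold change 0.47, SE 0.138, edgeR adjusted p = 0.388). Vcan, the proteoglycan versican, was separate too (0.34, SE 0.0946, adjusted p = 0.335), as was Hapln1, which links such proteoglycans to hyaluronan (0.69, SE 0.213, adjusted p = 0.420). Lum, lumican, overlapped (0.65, SE 0.180, adjusted p = 0.335). KO-HFD-1454 was the lowest KO library for Fn1 and the highest for Hapln1. Beside the values of Sox9 and Mgp stand those of cartilage markers, a list that holds Hapln1 itself. The value of Hapln1 is thus the same one again and no separate observation. The 3 tested of 8 listed, Acan, Hapln1 and Chad, had fitted values above 0 (median 0.41), 2 of them at an unadjusted p under 0.05 (3.83% of all genes were higher at that limit), and their list summed to 25.97 to 33.3 FPM in WT and 30.4 to 46.1 FPM in KO. Acan, the cartilage proteoglycan aggrecan and the most abundant of them, overlapped (0.41, SE 0.162, edgeR adjusted p = 0.624). Col2a1, the defining collagen of cartilage, was near 0, at 0.128 to 0.835 FPM in WT and 0 to 0.274 FPM in KO. The part of cartilage cells in these values was not tested.

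Vegfa, the vascular endothelial growth factor, measured 39.5, 32.9, 38.2 and 30.8 FPM in WT, against 21.8, 28.5, 25.2 and 24.9 FPM in KO, without overlap (log2 fold change -0.49, SE 0.113, edgeR adjusted p = 0.173). Of 9 endothelial markers tested, 3 were lower at an unadjusted p under 0.05 (3.5% of all genes), namely Egfl7 (-0.26, SE 0.0789, adjusted p = 0.400), Tie1 (-0.30, SE 0.0963, adjusted p = 0.469) and Kdr (-0.76, SE 0.337, adjusted p = 0.668). The most abundant, Pecam1, was at 410 ± 62.8 FPM in WT and 401 ± 52.3 FPM in KO, and the marker sum overlapped at 841 to 1071 and 807 to 1028 FPM. Edn1, the endothelin precursor, measured 24.4, 24.4, 27.7 and 22.1 FPM in WT, against 21.1, 17.6, 20.5 and 15.2 FPM in KO (-0.40, SE 0.124, adjusted p = 0.424). Of 17 Notch genes 3 (17.6%) were lower at an unadjusted p under 0.05, against 3.5% of all genes. Nrarp, a target that feeds back on Notch, was separate at 8.57 ± 0.862 and 4.48 ± 1.49 FPM (SD, n = 4, -0.91, SE 0.230, adjusted p = 0.272), and Dll4 and Notch4 overlapped (-1.02 and -0.32).

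Interferon-stimulated and MHC genes had fitted values above 0 for 21 of 27 members, with a median of 0.26, against 6690 of all 13765 genes. An unadjusted p under 0.05 was reached by 3 of them (11.1%), all higher, against 3.83% of all genes. None passed after adjustment by edgeR or DESeq2. Rsad2, an antiviral enzyme, measured 16.4, 7.55, 7.83 and 16.6 FPM in WT, against 16.7, 22.3, 38.5 and 27.7 FPM in KO (1.14, SE 0.285, edgeR adjusted p = 0.255), so that KO-HFD-1454 was next to the WT values. H2-Eb1, a class II MHC chain of antigen-presenting cells, was at 51.5 FPM in KO-HFD-1503 and 7.61 to 10.5 FPM in the other KO aortae, against 5.64 to 12.0 FPM in WT. KO-HFD-1503 was the highest library for 20 of the 27 genes, and its leucocyte markers summed to 291 FPM, against 119 to 236 FPM in the other 7. The part of leucocytes in these values was not tested. Among 18 chemokine and inflammation genes tested, of 35 listed, 4 (22.2%) were higher at an unadjusted p under 0.05, against 3.83% of all genes. Ccl2, one of the 4, was at 0.856 ± 0.416 FPM in WT and 1.74 ± 0.261 FPM in KO (SD, n = 4, log2 fold change 0.99, SE 0.400, edgeR adjusted p = 0.641). Its WT values alone were too low for the filter on low counts, so that Ccl2 was tested only through its KO values. KO-HFD-1503 was the highest library for 11 of the 18, and this list summed to 638 FPM in it, against 428 to 460 FPM in the other 7.

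Adipocyte markers had fitted values below 0 for 18 of 19 members, with a median of -0.45, against 7075 of all 13765 genes. An unadjusted p under 0.05 was reached by 5 (26.3%), all lower, against 3.5% of all genes, with none past the adjusted limit by edgeR and 1 by DESeq2. The lowest p was that of Cfd, the adipokine adipsin, at 25.6, 11.6, 16.3 and 18.3 FPM in WT, against 4.79, 11.5, 6.24 and 3.83 FPM in KO (log2 fold change -1.41, SE 0.302, edgeR adjusted p = 0.133). Cfd passed in 4 of 19 alternatives, namely DESeq2 (adjusted p = 0.000852), library totals (0.0320), no filter on low counts (4.04e-05) and without KO-HFD-1503 (0.00800). Cidec and Plin1, which coat lipid droplets, had values of -1.19 and -1.27 with overlap. The exception was the most abundant marker, Plin4, at 349 ± 30.6 and 393 ± 32.1 FPM (SD, n = 4). The marker sum was 728 to 1019 FPM in WT and 677 to 891 FPM in KO. WT-HFD-1447 was the highest library for 11 of the 19 markers and KO-HFD-1505 the lowest for 12. Of 31 genes of fatty acid oxidation and PPAR targets 23 were below 0, with a median of -0.10. An unadjusted p under 0.05 was reached by 2 of them (6.45%, against 7.33% of all genes). Acadvl, an acyl-CoA dehydrogenase, was the 1 with separate groups (3.23%, against 4.2% of all genes), at a log2 fold change of -0.49 (SE 0.130, edgeR adjusted p = 0.325). Both shares were below those of all genes. With the adipocyte marker mean as a covariate 13 genes were past the limit in place of 27, among them Adcy1, F2r, Cdo1 and Pisd-ps1 and not Egfr (-0.65, edgeR adjusted p = 0.222). Oxidative phosphorylation genes were balanced, with 4 of 64 higher and 3 lower at an unadjusted p under 0.05 (10.9%, against 7.33% of all genes) and a median of 0.00.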

How the data were processed

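RNA of whole aortae was depleted of ribosomal RNA and sequenced paired-end. The authors trimmed reads with cutadapt, aligned them to GRCm38/mm10 with Bowtie2 and TopHat and counted them with featureCounts. The deposited values are raw counts per gene, 1 column per mouse. Strand setting and handling of multiply mapped reads are not given in the sources used here.

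From these counts edgeR 4.0.16 (R 4.3.3) computed TMM factors and the quasi-likelihood test between the 4 KO and 4 WT libraries. Of 41128 genes 25440 had a count and 13765 passed filterByExpr (minimum count 10). P values were adjusted by Benjamini-Hochberg over all genes tested. Named genes were Egfr; of the genes past 0.05 with separate groups the 12 per direction with the smallest p, and all past 0.001; genes past 0.05 on a list or also past 0.05 on SFD; those with the largest and smallest log2 fold change above 5 FPM; and of each list described the most abundant member and up to 3 with the smallest p. Further genes (among them Gm13302 and other cluster members, Pisd, Egfros, Nudcd3 and F2rl1) are named for their relation to these, chosen after their values were seen. Members and lists were chosen with earlier results of these data known, so counts over lists are descriptions. Each library is 1 mouse. The values of 1 blood marker are not reported here.

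DESeq2 1.42.0 and limma 3.58.1 (voom) served as alternatives. The scripts were tested on simulated data. Sequences were handled in Python 3.11.15 with Biopython, positions came from GENCODE vM21 (40254 of 41128 genes found). The 8 libraries correlated at 0.964 to 0.982 across genes, and none was a copy of another (smallest chi-square per gene 6.17 over 28 pairs). The median SE of a log2 fold change was 0.169. The floor for a count of 0 covers counting error only.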

Additional observations from a re-analysis of the deposited data

Results flagged for a closer look

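In 20 of 269 groups of 4 libraries examined (7.43%), 1 library stood apart from the other 3 by Dixon's ratio, where chance alone gives about 1 in 20. Of these, 11 were KO-HFD-1454 and 4 KO-HFD-1503. KO-HFD-1454 was high for the chromosome 4 genes Gm13301 (42.2 FPM), Gm2163 (55.5 FPM), Gm3883 (41.8 FPM), Gm3892 (55.6 FPM), Gm10593 (56.1 FPM) and Gm13303 (16.2 FPM) and for Plin4 (441 FPM). It was low for Rgs5 (2371 FPM) and the summed regulators of G protein signalling (2714 FPM), for Camk2n1 (37.6 FPM) and for the summed elastic fibre and matrix glycoproteins (10637 FPM, against 13506 to 14006 FPM in the other KO aortae). KO-HFD-1503 was high for Dll4 (3.2 FPM), H2-Eb1 (51.5 FPM), Cd74 (166 FPM) and the summed inflammation and chemokine genes (638 FPM). WT-HFD-1448 was high for Rgs5 (2030 FPM) and the summed regulators (2350 FPM), WT-HFD-1447 for Jun (163 FPM), WT-HFD-1442 for the summed leucocyte markers (236 FPM) and WT-HFD-1443 for the summed adrenal and neighbouring tissue markers (18.5 FPM, against 3.71 to 5.52 FPM in the other WT aortae).

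Adcy1 had a log2 fold change of 5.38 in the aorta (edgeR adjusted p = 2.35e-10) and -1.42 in the kidney of HFD mice, where it did not pass (edgeR adjusted p = 1.0), and the genotypes did not overlap in either tissue. The difference between the tissues was not tested, since they were sequenced at different sites and only 1 mouse number is in both.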

How the results depend on the processing

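The count of 27 genes at an adjusted p under 0.05 became 43 with library totals (36 higher, 7 lower, where the median gene shifted by 0.07), 71 with DESeq2, whose NA values were kept as NA, 139 with no filter on low counts, 12 with all 14 aortae in 1 fit, 14 with protein-coding genes only, 13 with the adipocyte covariate, 47 with the covariate for small and structural RNAs and 10 with the chromosome 4 cluster summed. It was 18 to 37 with 1 library left out. The count of 9 at 0.001 became, in the same order, 17, 38, 43, 5, 4, 3 and 5 (6 with the cluster summed), and was 6 to 9 with 1 library left out. The 85 genes by effect size became 446 with no limit on FPM and 87 to 137 with 1 library left out, of which 134 without WT-HFD-1442 and 137 without KO-HFD-1454. The interaction count of 0 became 2 with DESeq2 and was 0 with any of the 14 libraries left out, and the SFD count of 3 became 12 in the fit of 14 aortae. The blood covariate and the summed cluster were added after seeing the data. The causes were not tested.

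Signs turned for values close to 0 and for Hba-a1. Acta2 went to -0.041 with the adipocyte and -0.097 with the blood covariate and ranged from -0.047 to 0.10 with 1 library left out, Myh11 went to -0.017 with the adipocyte covariate and ranged from -0.027 to 0.070, Adcy5 ranged from -0.038 to 0.14 (negative without WT-HFD-1442), Hba-a1 went to -0.36 with the blood covariate, of which it is a part, and Pecam1 went to 0.034 with library totals and to 0.019 and 0.051 with the adipocyte and blood covariates and ranged from -0.12 to 0.061. No paired analysis was possible because a replicate number only names a mouse of its own group. A difference that did not pass is not shown to be absent at this depth and spread (median SE 0.169).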
